A study of Mus musculus with 8 samples.

Results

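The integrated stress response and the unfolded protein response were examined in mouse hearts lacking Mettl3 in cardiomyocytes, using 39 of the 23045 genes in the deposited table. Members were taken by exact gene symbol, and all 39 were found once. Of these, 25 belong to the ATF4-type arm (stress transcription factors, their regulators, amino acid enzymes and transporters), and 14 to the endoplasmic reticulum (ER) arm (sensors, chaperones and other folding factors). In RNA-seq of hearts, 4 WT libraries (Mettl3lox/lox) were compared with 4 Mettl3 KO libraries (Mettl3lox/lox:alphaMHC-MerCreMerpos). METTL3 is the catalytic subunit of the enzyme complex that writes N6-methyladenosine on RNA. Per the study's methods both genotypes were 10 to 16 weeks old when injected with 100 µg tamoxifen per g body weight on 7 consecutive days, so that the loxP-flanked alleles and the drug are shared. The methods do not give the age at collection of the hearts or the time since the last dose. MerCreMer is a tamoxifen-activated Cre recombinase driven by the αMHC promoter, which is active in cardiomyocytes, and the other cells of the heart keep Mettl3. No group carried MerCreMer without the loxP-flanked alleles, and effects of the recombinase and of the deletion therefore cannot be told apart here. The labels number the libraries of a genotype 1 to 4 and name no animals, and p-values measure the spread between these libraries.

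Both responses meet in the cell's handling of protein synthesis. In the integrated stress response, kinases that sense amino acid shortage, mitochondrial faults, viral RNA or ER overload phosphorylate the initiation factor eIF2, which lowers general translation and raises translation of the transcription factor ATF4. ATF4 with its partners switches on genes for amino acid synthesis and uptake, one-carbon metabolism and, if stress lasts, cell death. The unfolded protein response adds the ER sensors ATF6 and IRE1, which raise chaperones and degradation factors when unfolded proteins gather in the ER. ATF4 is regulated largely at translation and ATF6 and IRE1 by cleavage and activation of the proteins, and none of this is measured by RNA levels.

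The genotype labels were checked on the targeted gene. Mettl3 (mm39 chromosome 14, 52532298 to 52542585, minus strand) had 105, 133, 118 and 107 normalized read counts in the WT group against 74, 68, 69 and 78 in the KO group, so that the KO mean was 62.4% of the WT mean (log2 fold change -0.67, SE 0.10, limma adjusted p = 0.000184). Esr1, the estrogen receptor gene that supplies a portion of the MerCreMer fusion, had 13 to 20 in WT and 693 to 851 in Mettl3 KO libraries. Deposited values summed to 2839589 to 2916986 per library, and the median gene had a mean of 24.3. Genes with a mean of at least 1 were tested (20313). Values below are normalized read counts; a fold change is Mettl3 KO against WT on the log2(value + 1) scale, which understates the change of low genes, and "called" means a Benjamini-Hochberg adjusted p under 0.05 in limma across all tested genes.

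Called ER members were all lower in Mettl3 KO hearts, whereas the ATF4-type arm held calls in both directions. Of the 14 ER members, 7 were called lower and 0 higher, whereas 3.19% of all tested genes were called lower (4.34% of those with a mean of at least 10). Of the 25 ATF4-type members, 2 were called higher and 2 lower, beside 4.72% of all tested genes called higher. The ER count depended on the model: 1 ER member was called lower without the mean-variance trend (Sdf2l1), 1 with an index of atrial genes as a covariate (Canx) and 0 with an index of immediate early genes, so that the calls of Hspa5, Pdia6, Calr, Manf and Dnajc3 ended in each of the 3 fits. The genotypes do not overlap in the immediate early index, and in that fit the targeted gene Mettl3 was not called either (log2 fold change -0.62, limma adjusted p = 0.189). In the atrial index Mettl3 KO replicates 2, 3 and 4 (0.84, 0.87 and 1.20) lay above every WT library (highest -0.20). Genotype and index are therefore hard to separate in the atrial fit as well. Without the trend 0 ATF4-type members were called in either direction. With the atrial index 3 of them were called higher and 0 lower, and with the immediate early index 1 and 0. Leaving out a library gave 1 to 3 ATF4-type members higher and 1 to 2 lower. The 11 called members are 28.2% of the 39, against 7.91% of all tested genes in either direction. The median log2 fold change was -0.25 over the ER members (range -0.95 to -0.03, all 14 below 0) and 0.19 over the ATF4-type members (range -0.45 to 1.91, 18 above 0 and 7 below), beside -0.01 over all tested genes. Of the ER members, 12 were below 0 with the atrial index, 13 with the immediate early index and 13 without WT replicate 4, the exceptions being Dnajb9 or Creld2 or both, neither of them called. Over the 19 ATF4-type members with a mean of at least 10, which leaves out Phgdh and Slc7a11 near 0 counts, the median was 0.17 with 14 above 0. The median over all 25 was 0.13 without WT replicate 4, 0.44 with the atrial index and 0.37 with the immediate early index. Depth differs between the arms: the median WT mean was 272 for ER members and 18.3 for ATF4-type members, and the median SE was 0.07 and 0.23 on the log2 scale. A small change of an ATF4-type member was therefore often not detectable at this depth.

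**Figure D1:**
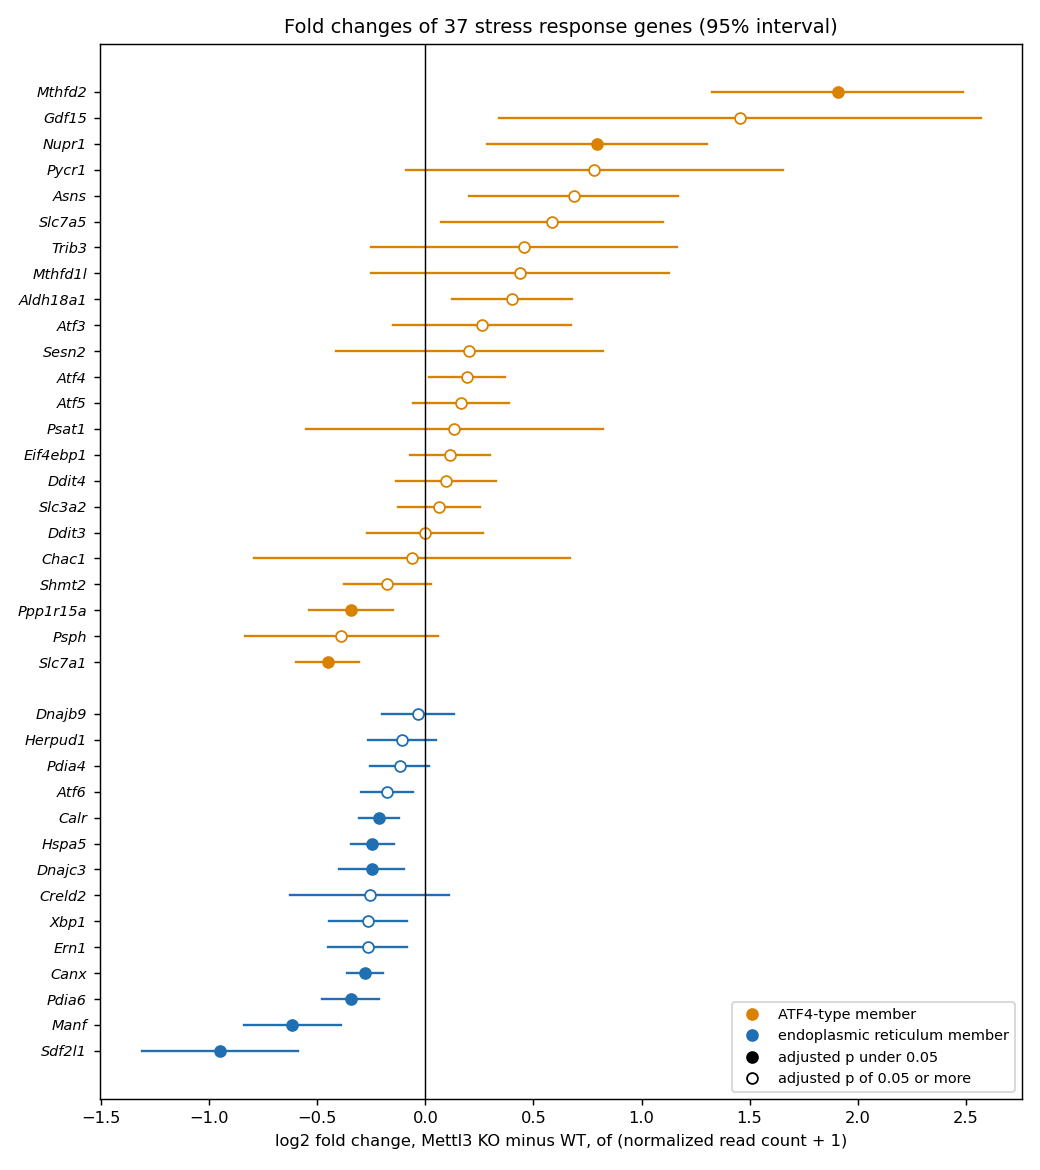
Log2 fold change of each member, Mettl3 KO minus WT, with its 95% interval (horizontal axis, log2 scale). Orange marks ATF4-type members and blue ER members, and filled circles have a limma adjusted p under 0.05. Phgdh and Slc7a11 lie near 0 counts and are not drawn. All 14 ER members lie left of 0, whereas ATF4-type members lie on both sides with Mthfd2 farthest to the right at 1.91.

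Among the ER chaperones, 3 of 4 members fell. Hspa5 (chromosome 2, 34661982 to 34667559, plus strand) encodes BiP, the ER HSP70 that binds unfolded proteins and holds the sensors inactive. It had 1289, 1190, 1314 and 1194 in WT libraries against 1133, 1008, 1082 and 984 in Mettl3 KO libraries. Every Mettl3 KO library lay below every WT library, and the fall was small, to 84.4% of the WT mean (log2 fold change -0.25, SE 0.05, limma adjusted p = 0.00202). Non-overlap with lower values in Mettl3 KO was seen for 6 of the 14 ER members and 5.04% of all tested genes. Sdf2l1 (chromosome 16, 16948002 to 16950247, minus strand), an ER-resident partner of HSP40 cochaperones, showed the deepest fall of the 39 members. It had 37, 35, 43 and 36 in WT libraries against 18, 19, 20 and 19 in Mettl3 KO libraries, which is 50.3% of the WT mean (log2 fold change -0.95, SE 0.17, limma adjusted p = 0.00108). The Mettl3 KO libraries differed by only 2 counts among themselves and stood well apart from WT.

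Dnajc3, the ER cochaperone P58IPK, also fell, with overlapping groups. Its values were 367, 321, 370 and 311 in WT against 314, 299, 282 and 257 in Mettl3 KO libraries (log2 fold change -0.25, SE 0.07, limma adjusted p = 0.0358). This call was lost when WT replicate 1 or 3, or Mettl3 KO replicate 2, 3 or 4, was left out, with limma adjusted p of 0.131, 0.111, 0.0645, 0.114 and 0.147. Dnajb9 (ERdj4), a target of the IRE1 branch that represses IRE1, had 145 to 172 in WT and 150 to 156 in Mettl3 KO libraries and was not called (log2 fold change -0.03, 95% interval -0.20 to 0.13).

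Both lectin chaperones of the calnexin cycle, which retain glycoproteins until they are folded, fell. Canx (chromosome 11, 50184788 to 50216500, minus strand), the membrane-bound calnexin, had 1253, 1202, 1274 and 1271 in WT libraries against 1049, 996, 1060 and 1014 in Mettl3 KO libraries. This is 82.4% of the WT mean (limma adjusted p = 7.69e-05, log2 fold change -0.28, SE 0.04), and the groups did not overlap. Calr (chromosome 8, 85568479 to 85573563, minus strand) encodes calreticulin, the soluble counterpart that also binds calcium in the ER. It had 717, 675, 730 and 720 against 616, 604, 624 and 606, again without overlap (log2 fold change -0.21, SE 0.05, limma adjusted p = 0.00378).

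Of the 2 protein disulfide isomerases 1 was called. Pdia6 (chromosome 12, 17316546 to 17334771, plus strand), an isomerase that also acts on the IRE1 sensor, fell to 78.8% of the WT mean. It had 297, 298, 313 and 289 in WT against 235, 218, 237 and 253 in Mettl3 KO libraries, with no overlap (log2 fold change -0.34, SE 0.06, limma adjusted p = 0.00114). Pdia4 had 290.0 ± 13.9 in WT and 268 ± 20.2 in Mettl3 KO hearts (SD, n = 4) and was not called (log2 fold change -0.12, 95% interval -0.26 to 0.02). Whether the isomerases differ from each other in their response was not tested, and their 95% intervals overlap (-0.48 to -0.21 for Pdia6).

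Manf was the member with the second lowest ratio in this arm. It encodes a secreted, ER-stress-inducible protein that protects cells including cardiomyocytes (chromosome 9, 106715511 to 106769178, minus strand). Its values were 142, 136, 157 and 107 in WT against 91, 93, 78 and 88 in Mettl3 KO libraries, 64.6% of the WT mean (log2 fold change -0.61, SE 0.11, limma adjusted p = 0.000734). No Mettl3 KO library reached the WT range, although WT replicate 4 came closer to Mettl3 KO than the other WT libraries did. Creld2, a secreted ER-stress-inducible protein, had 40, 49, 57 and 46 against 49, 38, 27 and 49, so that the groups overlapped widely (limma adjusted p = 0.465). Herpud1, a membrane component of the ER-associated degradation machinery, had 225 to 280 against 219 to 252 and was not called (log2 fold change -0.11, 95% interval -0.27 to 0.05).

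None of the sensors and transcription factors of the ER arm was called. Atf6, the membrane-bound sensor whose cleaved part drives chaperone genes, had 788, 763, 817 and 724 in WT against 763, 655, 709 and 615 in Mettl3 KO libraries (log2 fold change -0.18, SE 0.06, limma adjusted p = 0.0659). Ern1, which encodes IRE1, had 160, 177, 181 and 172 against 125, 150, 167 and 134 (log2 fold change -0.27, SE 0.09, limma adjusted p = 0.0685). Xbp1, whose mRNA IRE1 splices, had 181, 169, 190 and 143 against 143, 143, 133 and 146 (log2 fold change -0.26, SE 0.09, limma adjusted p = 0.0660). All 3 had 95% intervals below 0 and groups that overlapped or touched, and of 21 other settings Atf6 passed the threshold in 6, Ern1 in 1 and Xbp1 in 1. With the atrial index the Atf6 log2 fold change was -0.015 (limma adjusted p = 0.951). With the immediate early index that of Xbp1 was -0.12 (limma adjusted p = 0.865) and that of Ern1 -0.52, not called. Read counts over all exons do not separate spliced from unspliced Xbp1.

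**Figure D2:**
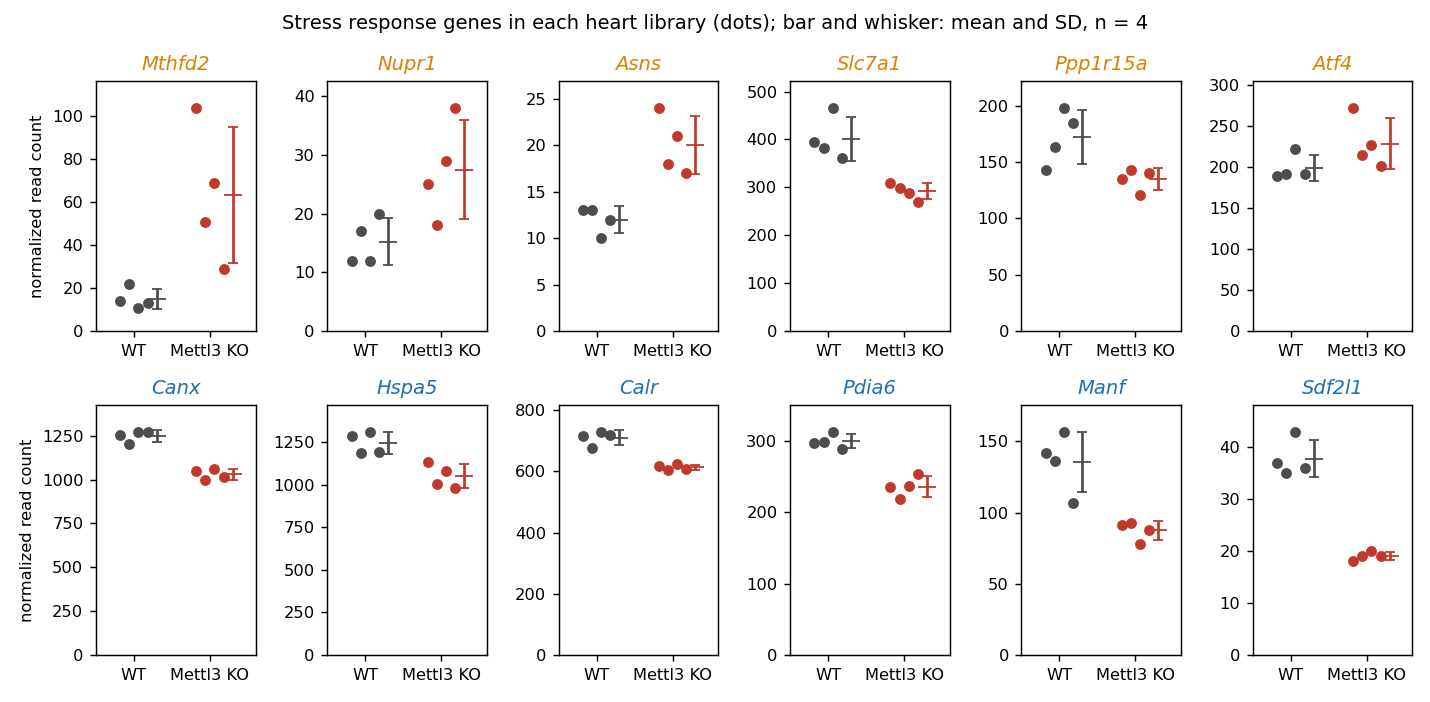
Normalized read counts (vertical axes, starting at 0) of 12 members in the 4 WT (grey) and 4 Mettl3 KO (red) heart libraries. Each dot is a library, and the bar with whiskers is the mean ± SD. The top row holds ATF4-type and the bottom row ER members. The 6 ER members show no overlap between genotypes, and Mthfd2 ranges from 29 to 104 in Mettl3 KO libraries against 11 to 22 in WT.

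Promoters of the members were searched for the elements known to drive these responses. Promoters are those of RefSeq (GRCm38.p6), from 250 bases before to 50 after the annotated start, and an entry was matched for 35 of the 39 members (12 ER and 23 ATF4-type). Here and below, shares of all promoters are per promoter entry, whereas a member is counted as a gene with a match in any of its entries. Shares and member counts are therefore in unlike units. The ER stress response element, which is CCAAT and CCACG parted by 9 bases of any kind, read on both strands, was present in 0.119% of 32851 promoters. It was found in 6 members, all of the ER arm: Hspa5, Dnajc3, Pdia6, Calr, Canx and Creld2. Of these, all but Creld2 were called lower. They are shown because this element is shared by most of the called ER members, with 12 bases on either side, on the gene's strand and 5′ to 3′; capitals mark the element, which reads as its reverse complement in Calr and Creld2.
Hspa5, GRCm38.p6 chr2:34772013-34772055, plus strand: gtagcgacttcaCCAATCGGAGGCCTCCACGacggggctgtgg
Dnajc3, GRCm38.p6 chr14:118937815-118937857, plus strand: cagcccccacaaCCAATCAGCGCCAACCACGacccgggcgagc
Pdia6, GRCm38.p6 chr12:17266479-17266521, plus strand: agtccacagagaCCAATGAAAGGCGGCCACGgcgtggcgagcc
Canx, GRCm38.p6 chr11:50325788-50325830, minus strand: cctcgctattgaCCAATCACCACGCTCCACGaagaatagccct
Calr, GRCm38.p6 chr8:84847063-84847105, minus strand: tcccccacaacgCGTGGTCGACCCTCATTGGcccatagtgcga
Creld2, GRCm38.p6 chr15:88819508-88819550, plus strand: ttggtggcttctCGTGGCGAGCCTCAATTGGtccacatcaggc

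These matches lay between 162 and 47 bases before the start. The unfolded protein response element TGACGTGG, also read on both strands, was in 0.676% of all promoters and in 0 of the 35 matched members. A match describes letters in this window and shows neither binding nor use of the element in these hearts.

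In the ATF4-type arm Mthfd2 had the lowest adjusted p, and it was the only 1 of the 6 serine and one-carbon members to be called. Mthfd2 (chromosome 6, 83282673 to 83302890, minus strand) encodes the mitochondrial methylenetetrahydrofolate dehydrogenase of one-carbon metabolism, an enzyme known for its high level in embryonic and tumour cells. It had 14, 22, 11 and 13 in WT libraries against 104, 51, 69 and 29 in Mettl3 KO libraries. The mean rose from 15.0 ± 4.83 to 63.3 ± 31.7 (SD, n = 4), 4.22-fold, without overlap (log2 fold change 1.91, 95% interval 1.33 to 2.49, limma adjusted p = 0.000107). Of 21 other settings, 1 ended the call, the fit without the mean-variance trend (limma adjusted p = 0.0634). Higher values without overlap were seen in 6.46% of all tested genes. The Mettl3 KO libraries themselves differed widely, with replicate 1 at the top and replicate 4 at the bottom.

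The other serine and one-carbon enzymes gave no further call. Shmt2, the mitochondrial serine hydroxymethyltransferase acting just before Mthfd2, had 98, 118, 117 and 106 in WT against 93, 96, 107 and 92 in Mettl3 KO libraries (log2 fold change -0.17, 95% interval -0.37 to 0.02). Psph, the last enzyme of serine synthesis, had 20, 29, 22 and 18 against 17, 16, 16 and 17, lower without overlap but not called (limma adjusted p = 0.328). None of the serine synthesis enzymes Phgdh, Psat1 and Psph was called. Psat1, the transaminase of the same route, had 7 to 16 against 6 to 14, and Mthfd1l, the mitochondrial formate-producing enzyme, 5 to 7 against 5 to 11. Phgdh, the first enzyme of serine synthesis, had 3 in each WT library and 6, 4, 1 and 2 in Mettl3 KO libraries, too low for a fold.

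Asparagine and proline synthesis had positive fold changes for all 3 members and no call. Asns (chromosome 6, 7675169 to 7693254, minus strand), asparagine synthetase, had 13, 13, 10 and 12 in WT against 24, 18, 21 and 17 in Mettl3 KO libraries. The groups did not overlap, but the limma adjusted p was 0.0750 (log2 fold change 0.69, 95% interval 0.20 to 1.17). Aldh18a1, which makes the proline precursor from glutamate, had 49, 61, 55 and 41 against 69, 74, 67 and 61, groups that touched at 61 (log2 fold change 0.40, limma adjusted p = 0.0701). Without WT replicate 2 Aldh18a1 was called higher (log2 fold change 0.485, limma adjusted p = 0.0477). Pycr1, which completes mitochondrial proline synthesis, had 5, 5, 2 and 1 against 8, 6, 4 and 5 (limma adjusted p = 0.310).

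Of the 4 amino acid transporters 1 was called. Slc7a1 (chromosome 5, 148264220 to 148336714, minus strand), the cationic amino acid transporter CAT-1 for arginine and lysine, fell to 72.8% of the WT mean. It had 394, 383, 466 and 362 in WT against 310, 299, 289 and 270 in Mettl3 KO libraries, with no overlap (log2 fold change -0.45, SE 0.07, limma adjusted p = 0.000211). Slc7a1 was not called without the mean-variance trend (limma adjusted p = 0.0696), with the atrial index (log2 fold change -0.24, limma adjusted p = 0.131) or with the immediate early index (log2 fold change -0.32, limma adjusted p = 0.364). Slc7a5, the leucine transporter LAT1, had 15, 21, 12 and 25 against 39, 19, 25 and 28 and was not called (limma adjusted p = 0.172). Its heavy chain Slc3a2 had 109 to 130 against 115 to 139 (log2 fold change 0.06, 95% interval -0.13 to 0.25). Slc7a11, the cystine transporter that shares this heavy chain, was at 1 or below in WT and between 1 and 3 in Mettl3 KO libraries, too low for a fold.

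Among the stress transcription factors, Nupr1 alone was called, at the edge of the threshold. Nupr1 (chromosome 7, 126222421 to 126230033, minus strand), a small stress-induced chromatin protein, had 12, 17, 12 and 20 in WT against 25, 18, 29 and 38 in Mettl3 KO libraries, groups that overlapped (log2 fold change 0.79, SE 0.24, limma adjusted p = 0.0483). Its call was lost in 14 of 21 other settings, including the fits that left out WT replicate 1, 2 or 3 (limma adjusted p = 0.138, 0.0757 and 0.117) or Mettl3 KO replicate 1, 3 or 4 (limma adjusted p = 0.0611, 0.144 and 0.195). The Nupr1 log2 fold change was 0.50 with the atrial index (limma adjusted p = 0.540) and 0.14 with the immediate early index (limma adjusted p = 0.948). Atf4 (chromosome 15, 80139385 to 80141742, plus strand) had 189, 192, 222 and 192 against 272, 214, 227 and 201, with Mettl3 KO replicate 1 well above the rest (log2 fold change 0.19, 95% interval 0.02 to 0.37, limma adjusted p = 0.188). Atf5, a relative of ATF4 that serves mitochondrial stress, likewise reached 247 in Mettl3 KO replicate 1 and lay between 152 and 188 in the other 7 libraries (limma adjusted p = 0.423). Ddit3, which encodes the death-promoting factor CHOP, had 95, 73, 65 and 64 against 74, 64, 83 and 73, with WT and Mettl3 KO means of 74.3 and 73.5. Atf3, an immediate stress factor, had 17 to 23 against 21 to 26 (limma adjusted p = 0.522).

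Of the regulators, Ppp1r15a was called lower. Ppp1r15a (chromosome 7, 45172340 to 45175692, minus strand) encodes GADD34, the phosphatase subunit that removes phosphate from eIF2 and closes the response. It had 143, 163, 198 and 185 in WT against 135, 143, 121 and 140 in Mettl3 KO libraries, groups that touched at 143 (log2 fold change -0.34, SE 0.09, limma adjusted p = 0.0260). Leaving out WT replicate 2, 3 or 4 or Mettl3 KO replicate 3 or 4 ended the call (limma adjusted p = 0.0512, 0.0993, 0.0979, 0.119 and 0.0564). So did the replicate block (limma adjusted p = 0.0532), no mean-variance trend (0.189), the atrial index (log2 fold change -0.18, limma adjusted p = 0.536) and the immediate early index (log2 fold change -0.33, limma adjusted p = 0.536). Ddit4 (REDD1) and Sesn2, both inhibitors of mTORC1, had 87 to 126 against 96 to 121 and 6 to 15 against 9 to 16. Eif4ebp1, the repressor of cap-dependent translation, had 100 to 112 against 109 to 125, and the pseudokinase Trib3, which dampens ATF4 and CHOP, 4 to 14 against 10 to 21. None of these 4 was called.

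Gdf15, the secreted hormone used as a marker of mitochondrial and integrated stress, was near the bottom of the range. It had 0, 6, 1 and 1 in WT against 10, 7, 2 and 5 in Mettl3 KO libraries and was not called (limma adjusted p = 0.106), whereas without WT replicate 2 the limma adjusted p was 0.0279. Chac1, the glutathione-degrading enzyme, had 4, 9, 15 and 14 against 8, 13, 7 and 9, overlapping throughout (limma adjusted p = 0.953).

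The core of the C/EBP-ATF response element, TGATGNAA on either strand, was in 3.97% of all promoters. It was found in 8 matched members, namely Atf3, Chac1, Trib3, Slc7a11, Asns, Nupr1 and Pycr1 of the ATF4-type arm and Herpud1 of the ER arm. Mthfd2, the member that rose most, had no match in this window, and of the 8 only Nupr1 was called. The letters are shown for Asns and Nupr1, which had the lowest adjusted p among the 8, with capitals marking the core (reverse complement in Nupr1).
Asns, GRCm38.p6 chr6:7693213-7693244, minus strand: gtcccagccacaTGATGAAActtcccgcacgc
Nupr1, GRCm38.p6 chr7:126625561-126625592, minus strand: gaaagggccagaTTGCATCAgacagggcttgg

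**Figure D3:**
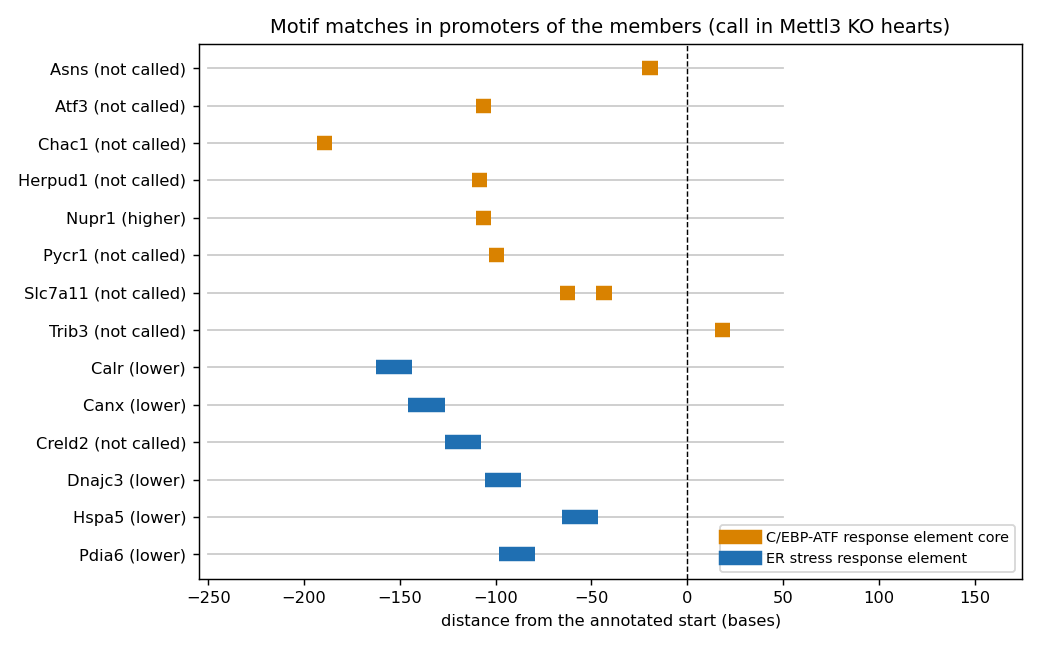
Positions of motif matches along the promoters of 14 members (horizontal axis, bases from the annotated start, dashed line at 0). Orange bars are C/EBP-ATF response element cores and blue bars ER stress response elements, and the call in Mettl3 KO hearts stands beside each gene. The 6 blue bars lie before the start, and 5 of these genes were called lower.

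Levels were set per kilobase of exon to compare members with each other. In WT hearts Hspa5 was highest with 295 ± 15.1 normalized read counts per kilobase, followed by Canx with 266 ± 7.10 and Calr with 247 ± 8.44 (SD, n = 4). Pdia4 came next with 121 ± 5.80. Mthfd2 had 4.30 ± 1.39 per kilobase in WT and 18.1 ± 9.09 in Mettl3 KO hearts. Its paralogue Mthfd2l, a mitochondrial enzyme of the same reaction, had means of 43.0 and 46.3 counts, and the cytosolic Mthfd1 199 and 207, neither called. Sdf2l1 fell from 34.1 ± 3.24 to 17.1 ± 0.737 per kilobase. Atf4, Atf6 and Atf5 had 84.3 ± 6.60, 83.7 ± 4.27 and 83.2 ± 5.96 per kilobase in WT hearts, which do not differ beyond their spread.

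Genes of the same pathways outside the 39 members were counted next. Of 80 tested, 1 was called higher and 5 lower, which is 7.50% beside 7.91% of all tested genes, with a median log2 fold change of -0.04. In the ER lists, 3 of 24 (12.5%) were called lower, beside 3.19% of all tested genes, and 0 higher, and their median was -0.10. The strongest was Hyou1, an ER chaperone of the large HSP70 class and exchange factor for BiP, which had 321, 288, 328 and 275 in WT against 219, 201, 179 and 192 in Mettl3 KO libraries (log2 fold change -0.61, SE 0.07, limma adjusted p = 1.31e-05). Hsp90b1, the ER HSP90 called GRP94, fell from 1190 ± 29.9 to 1066 ± 35.1 (SD, n = 4, limma adjusted p = 0.0151), and Syvn1, the ubiquitin ligase HRD1 of ER-associated degradation, from 96.8 ± 8.18 to 74.3 ± 5.74 (SD, n = 4, limma adjusted p = 0.0264). The call of Hsp90b1 was lost in 6 of 21 other settings, including those without WT replicate 1 or 4 or Mettl3 KO replicate 4 (limma adjusted p = 0.0520, 0.0518 and 0.0533). Syvn1 lost its call in 9, including those without WT replicate 1, 3 or 4 or Mettl3 KO replicate 1 or 4 (limma adjusted p = 0.101, 0.0545, 0.0587, 0.0556 and 0.0804). Hyou1 kept its call in 20 of 21 and lost it with the immediate early index (log2 fold change -0.345, limma adjusted p = 0.296). In the genotype fit Pdia3, P4hb, Dnajb11, Sel1l and Edem1 were not called, with log2 fold changes below 0. Of the 24 genes in the ER lists, 16 (66.7%) had fold changes below 0, beside 51.5% of all tested genes. The other 8 were above 0, and none of these was called.

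In the integrated stress lists, 53 of 56 tested genes were not called, and 5.36% were called beside 7.91% of all tested genes. The eIF2 kinases, eIF2 and eIF2B subunits and the phosphatase subunit Ppp1r15b (11 genes) held 0 calls, with a median of -0.06, and the 12 tRNA synthetases held 0 calls, with a median of -0.04. The mitochondrial relay and protease genes, including Oma1 and Dele1, which pass mitochondrial faults to eIF2, held 0 calls among 8. Cebpd, a C/EBP factor, rose from 45.0 ± 5.60 to 70.3 ± 10.9 (SD, n = 4, log2 fold change 0.63, limma adjusted p = 0.00546). Cebpd was not called without the mean-variance trend (limma adjusted p = 0.0752), with the atrial index (limma adjusted p = 0.213) or with the immediate early index (limma adjusted p = 0.446), its log2 fold changes being 0.63, 0.48 and 0.57. Gpt2, the mitochondrial alanine transaminase, fell from 166 ± 25.2 to 106 ± 24.6 (SD, n = 4, log2 fold change -0.65, limma adjusted p = 0.00183). It was not called without the mean-variance trend (limma adjusted p = 0.126). The Gpt2 call was also lost with the atrial index (log2 fold change -0.26, limma adjusted p = 0.409) and the immediate early index (-0.29, limma adjusted p = 0.705). Vldlr, a lipoprotein receptor induced by ATF4, had a log2 fold change of -0.16 (limma adjusted p = 0.0271). Without WT replicate 3 or 4 or Mettl3 KO replicate 2 or 4 Vldlr was not called (limma adjusted p = 0.107, 0.0796, 0.0689 and 0.110), and with the atrial index its log2 fold change was -0.06.

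Library by library, both arms were summarised as the mean log2 deviation of their members from the mean of all 8 libraries. ER members stood at 0.07 to 0.26 in WT and at -0.16 to -0.11 in Mettl3 KO libraries. ATF4-type members stood at -0.26 to 0.03 in WT and at 0.06 to 0.38 in Mettl3 KO libraries. Over the 19 ATF4-type members with a mean of at least 10 the gap was narrow, with -0.23 to 0.01 in WT and 0.02 to 0.28 in Mettl3 KO libraries. Mthfd2, which rose most, weighs on both means, and deviations without it were not computed, so a separation across the arm is not shown. Mettl3 KO replicate 1 had the highest deviation, and it was the highest Mettl3 KO library for 11 of the 25 ATF4-type members (44.0%), among them Mthfd2, Atf4, Atf5, Asns, Trib3 and Slc7a5, beside 25.6% of all tested genes. WT replicate 3 was the highest WT library for 11 of the 14 ER members (78.6%), beside 24.0% of all tested genes. This library also had the lowest sum of the atrial genes described below, 17 against 137 to 150 in the other WT libraries, and their part in its ER values was not tested. Summed ER values were 5676 to 6189 in WT and 4808 to 5178 in Mettl3 KO libraries, whereas summed ATF4-type values overlapped, with 1587 to 1775 and 1562 to 1864.

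**Figure D4:**
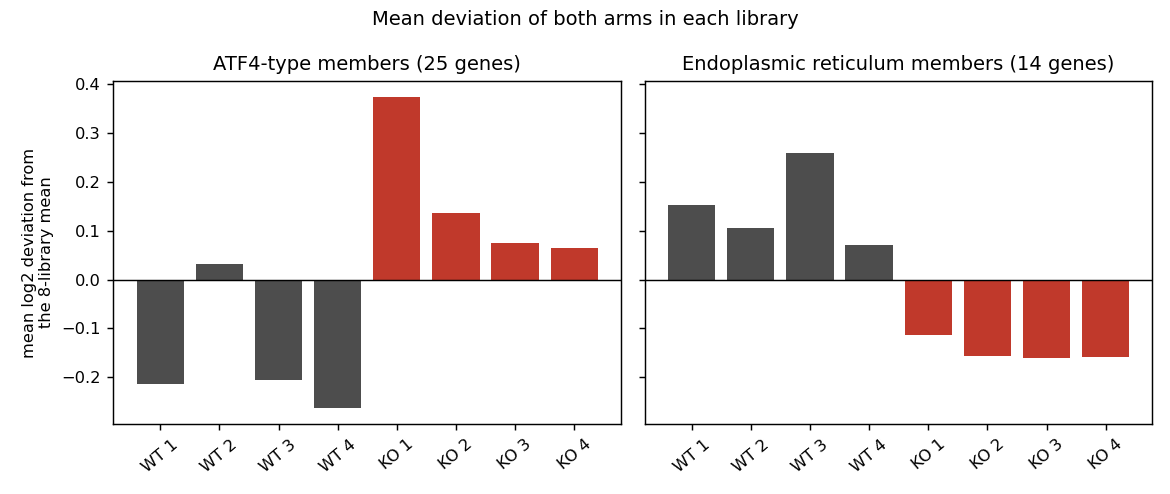
Mean log2 deviation of the ATF4-type members (left) and ER members (right) from the mean of the 8 libraries, 1 bar for each WT (grey) and Mettl3 KO (red) library. ER members are above 0 in all WT and below 0 in all Mettl3 KO libraries, and Mettl3 KO replicate 1 is highest for the ATF4-type members at 0.38.

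Other cell types moved with genotype beside these results. In bulk hearts, fewer cells of a type and less RNA per cell cannot be told apart. All 8 cardiomyocyte markers were detected and 0 were called, their sums being 83503 to 90482 in WT and 82754 to 92592 in Mettl3 KO libraries. Endothelial markers were lower, with 4 of 8 called lower and sums of 5172 to 5361 against 4466 to 4867. Fibroblast markers were higher, with 7 of 8 called and sums of 3648 to 4172 against 4711 to 5671. No marker of macrophages (6), smooth muscle and pericytes (6) or lymphocytes and plasma cells (6) was called. The 4 atrial genes Myl7, Myl4, Sln and Bmp10 were all called higher, with sums of 17 to 150 in WT and 146 to 911 in Mettl3 KO libraries, and Bmp10 was listed at 0 in all WT libraries and in Mettl3 KO replicate 1. Of 10 immediate early genes 0 were called and all 10 had fold changes above 0. Their sums overlapped (763 to 856 and 830 to 948), whereas their mean log2 deviations did not, at -0.17 to 0.01 in WT and 0.06 to 0.16 in Mettl3 KO libraries. The 3 erythroid genes were not called, with fold changes below 0 (median -0.33) and sums of 135 to 221 in WT against 97 to 163 in Mettl3 KO libraries. The part of these cell types in the changes of the members was not tested, except that an index of the 4 atrial genes as a covariate left 1 of the 9 members called lower, Canx, and moved the ER median to -0.15. The log2 fold changes in that fit were close to those without the index for Sdf2l1 (-0.86, limma adjusted p = 0.0685), Pdia6 (-0.32, limma adjusted p = 0.0529) and Calr (-0.18, limma adjusted p = 0.132). They were smaller for Hspa5 (-0.12), Dnajc3 (-0.08), Manf (-0.45), Slc7a1 (-0.24) and Ppp1r15a (-0.18). In the same fit Mthfd2 remained called and Atf4 (log2 fold change 0.48, limma adjusted p = 0.00465) and Atf5 (0.51, limma adjusted p = 0.0181) were called higher. Mettl3 KO replicate 1, the library with the highest Atf4 and Atf5, had an atrial index within the WT range. Leaving this library out of the atrial fit was not tried. In the fit without the index neither gene was called, with or without this library. Its removal there moved the log2 fold change of Atf4 from 0.19 to 0.11 (limma adjusted p = 0.488). That of Atf5 moved from 0.17 to 0.03 (limma adjusted p = 0.903).

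**Figure D5:**
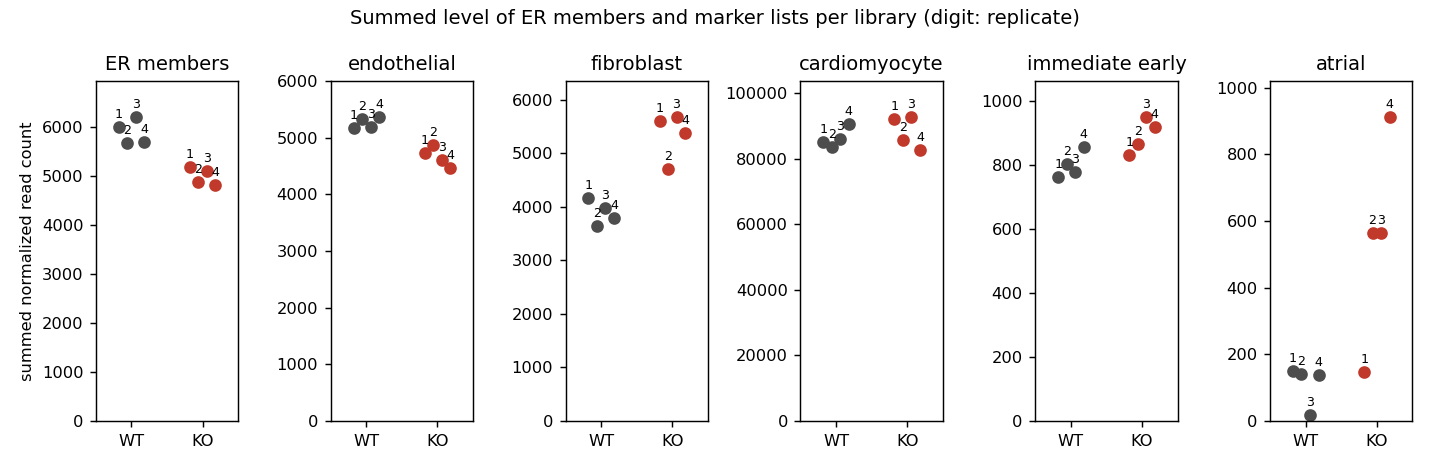
Summed normalized read counts (vertical axes, starting at 0) of the 14 ER members and of marker lists in each WT (grey) and Mettl3 KO (red) library, with replicate numbers as digits. ER members and endothelial markers are lower and fibroblast markers higher in every Mettl3 KO library, cardiomyocyte markers overlap, and atrial sums are highest in Mettl3 KO replicate 4 at 911.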

How the data were processed

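Total RNA of mouse hearts was sequenced as stranded single-end libraries of 72 bp. According to the methods of the study, reads were quality-trimmed (Trimmomatic 0.39) and mapped to mm39 (STAR 2.7.11a, Ensembl gene models). Duplicates (Picard 3.1.1) and multi-mapping, ribosomal and mitochondrial reads were left out by the authors. Counting by featureCounts 2.0.4 was strand-specific and limited to exons, and a read that fell on several genes did not count. The authors then normalized the counts with DESeq2 1.36.0 and deposited them rounded to whole numbers, which are treated here as a score. They are not raw counts, so no count model was run and the depth per library behind them is known only after normalization. Leaving out duplicates lowers short, abundant transcripts most.

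The fit covered 20313 genes whose mean reached 1 (2732 fell below) and used limma 3.58.1 (R 4.3.3) on log2(value + 1). Genotype was its single term, and the prior variance followed a mean-variance trend. Tests were two-sided, adjusted by Benjamini-Hochberg over all genes, with a threshold of 0.05. The fit was tested on simulated data. Members, roles, pathway and marker lists were chosen with earlier results of these data known, and no list was tested as a set. All members are named, and other pathway genes where they were called; Pdia3, P4hb, Dnajb11, Sel1l, Edem1, Oma1, Dele1, Ppp1r15b and the paralogues of Mthfd2 were named after their values were seen. Of 84 pathway genes, Fgf21, Slc7a3 and Clgn fell under the filter and Derl3 was not matched. Exon lengths (39 members) were matched by gene identifier to GENCODE gene models of an older build, and promoters from RefSeq in GRCm38.p6. None of their coordinates was mixed with mm39. Manf, Atf6, Eif4ebp1 and Slc7a5 had no promoter entry in the table used. Locations of genes are mm39. A pseudocount of 0.5 or 5, a mean of at least 10 or no filter, 3 other scalings, voom, no trend, robust moderation, a replicate block, covariates and each library left out in turn were tried.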

Additional observations from a re-analysis of the deposited data

Results flagged for a closer look

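Within each genotype, each member was searched for a single library far from the other 3 by the gap to its nearest neighbour divided by the whole range. Of 78 groups 4 were marked, where chance at 1 in 20 gives 3.9, and all 4 are in WT. Atf4 had 222 in WT replicate 3 and 189 to 192 in the others (0.909). Gdf15 had 6 in WT replicate 2 and 0 to 1 in the others (0.833), and this library decides whether Gdf15 is called. Mthfd1l had 7 in WT replicate 1 and 5 in the others (1.0), and Slc7a11 was listed at 0 in WT replicate 3 and had 1 in the others (1.0). The last pair differ by 1 or 2 counts.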

How the results depend on the processing

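Over 21 alternatives no called member changed sign, whereas the uncalled ER members Dnajb9 and Creld2 did in 2 each. Mthfd2 was called in 20, Canx and Sdf2l1 in 19, and Slc7a1, Hspa5, Pdia6, Calr and Manf in 18, each of them in all 8 fits that left out a library. Members called lower numbered 7 to 10 and members called higher 1 to 3 in those 8 fits, and genes called in all 1005 (without Mettl3 KO replicate 3) to 1593. Without the mean-variance trend 321 genes were called, with 0 members higher and 1 lower (Sdf2l1). In the atrial index only replicate 1 of the Mettl3 KO libraries lay within the WT range. With the atrial index 879 genes and 1 member lower (Canx) were called, and the medians were 0.44 for the ATF4-type and -0.15 for the ER members. With the immediate early index, in which the genotypes do not overlap, 164 genes, 1 member higher and 0 lower were called, and the ATF4-type median was 0.37 and the ER median -0.21. Log2 fold changes in that fit were -1.07 for Sdf2l1, -0.42 for Pdia6, -0.32 for Canx and -0.25 for Calr, and smaller than in the genotype fit for Hspa5 (-0.18), Manf (-0.32) and Dnajc3 (-0.03). With a pseudocount of 5, upper quartile scaling, total scaling or voom, 1 member was called higher, Nupr1 being lost. Replicate numbers did not pair the samples (correlations of same-numbered deviations -0.02 to 0.07). The replicate block gave 1346 genes, with 1 member higher and 9 lower, Atf6 being gained and Nupr1 and Ppp1r15a lost. Upper quartile scaling split all calls into 820 higher and 767 lower, against 958 and 649. The causes of these changes were not tested. Depth limits the 6 ATF4-type members with a mean under 10, whose standard errors are large.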
